A study of Bos taurus with 6 samples.

Results

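The genes described here are 7 that granulosa cells of the ovarian follicle use before the surge of luteinizing hormone (LH): CYP19A1 and HSD17B1, which make oestradiol, the gonadotropin receptors FSHR and LHCGR, the cell cycle gene CCND2, the signalling ligand IHH and the amino acid transporter SLC38A3. They were chosen by name, and every probe that the platform annotation assigns to them was taken. This gave 7 of 15216 genes and 10 of 43794 probes, with 3 probes for CYP19A1, 2 for LHCGR and 1 for each of the others. RNA came from granulosa cells of the dominant preovulatory follicle of Hereford cows, in 3 aged animals (multiparous, cows 13, 110 and 126) and 3 young animals (nulliparous heifers, cows 11, 7 and 184). All 6 cows, aged and young, had their cycles synchronised with prostaglandin F2 alpha and received 25 mg of LH on day 6, and the follicle was collected 24 h later, on day 7. Each array held an aged and a young cow, in the fixed pairs 13 with 11, 110 with 7 and 126 with 184, with 2 arrays per pair, between which Cy3 and Cy5 were exchanged. The labels mention mothers and daughters but do not state that these make up the array pairs, and they give no age in years. They name aspiration or removal of the ovary, and freezing or a preservative, and leave out which cow had which.

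Granulosa cells of a growing follicle carry the FSH receptor, which acts through cyclic AMP to switch on aromatase (CYP19A1) and proliferation, and a dominant follicle then adds the LH receptor. Aromatase turns androgens supplied by the neighbouring theca cells into oestrogens, and HSD17B1 reduces oestrone to the stronger oestradiol. The LH surge ends this phase: in cattle and other mammals, aromatase and both receptors decline in granulosa cells within hours, cell division stops, and the cells turn to making progesterone from cholesterol.

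The granulosa marker INHA, the alpha subunit of inhibin, was bright in 5 of the 6 cows, with levels of 15.11, 15.10 and 14.87 in aged cows 13, 110 and 126, against 10.48 in young cow 11 and 15.05 and 15.17 in young cows 7 and 184. Its signal stood above the negative control spots in 6 of 6 aged channels and 5 of 6 young ones. Levels here are log2 signals of a cow, averaged over its 2 arrays; they compare cows for a given probe, values near 8.3 lie at background, and n is 3 pairs unless stated. FOXL2, a transcription factor of granulosa cells, stood above the negative control spots in 1 of 6 aged channels and 0 of 6 young ones, so its probe gave no check of the cell type. The epithelial markers EPCAM (8.23, 8.80 and 9.26 in the aged cows, against 15.0, 12.98 and 9.78 in young cows 11, 7 and 184) and KRT19 (9.20, 9.45 and 12.16, against 14.69, 15.37 and 11.53) were brightest in young cows 11 and 7. Over the 11 epithelial markers on the array, mean levels were 8.66, 8.98 and 9.53 in aged cows 13, 110 and 126, against 11.58, 11.54 and 9.42 in young cows 11, 7 and 184, while CDH1 exceeded the negative controls in 0 of 6 aged and 2 of 6 young channels. In such bulk samples, fewer cells of a type and less RNA per cell cannot be told apart. Arrays with exchanged dyes correlated with Pearson r = 0.847 (cows 13 and 11), 0.844 (110 and 7) and 0.614 (126 and 184) across probes, which are not independent replicates, and 49.3 to 71.6% of probes per channel exceeded the negative control spots.

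Most of the 7 genes were close to background in most cows 24 h after LH. CCND2 exceeded the detection threshold (2 SD above the mean of the array's negative controls) in all 6 aged and all 6 young channels, and IHH in 6 aged and 5 young channels. CYP19A1 exceeded it in 5 aged and 5 young channels with its brightest probe, FSHR in 5 aged and 1 young, and SLC38A3 in 5 aged and 3 young. LHCGR exceeded it in 4 aged and 2 young, and HSD17B1 in 2 aged and 1 young. The second LHCGR probe exceeded it in none of the 12 channels. The aged FSHR channels include the Cy5 spot of aged cow 110, whose local background (6306 units) exceeded its signal (282.8 units). On every array the threshold was higher in the young channel (303.8 to 440.4 units) than in the aged channel (221.6 to 286.6 units). Over all probes, 56.2 to 69.3% exceeded it in aged channels and 49.3 to 71.6% in young channels, so these counts do not compare the ages. Signal over 10 times the threshold was found for CYP19A1 in aged cow 13 and for CCND2 in aged cow 13 and young cow 7, and for no other member or cow. IHH reached 3.51 times the threshold, and LHCGR 2.47 times, both in an aged cow.

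**Figure D1:**
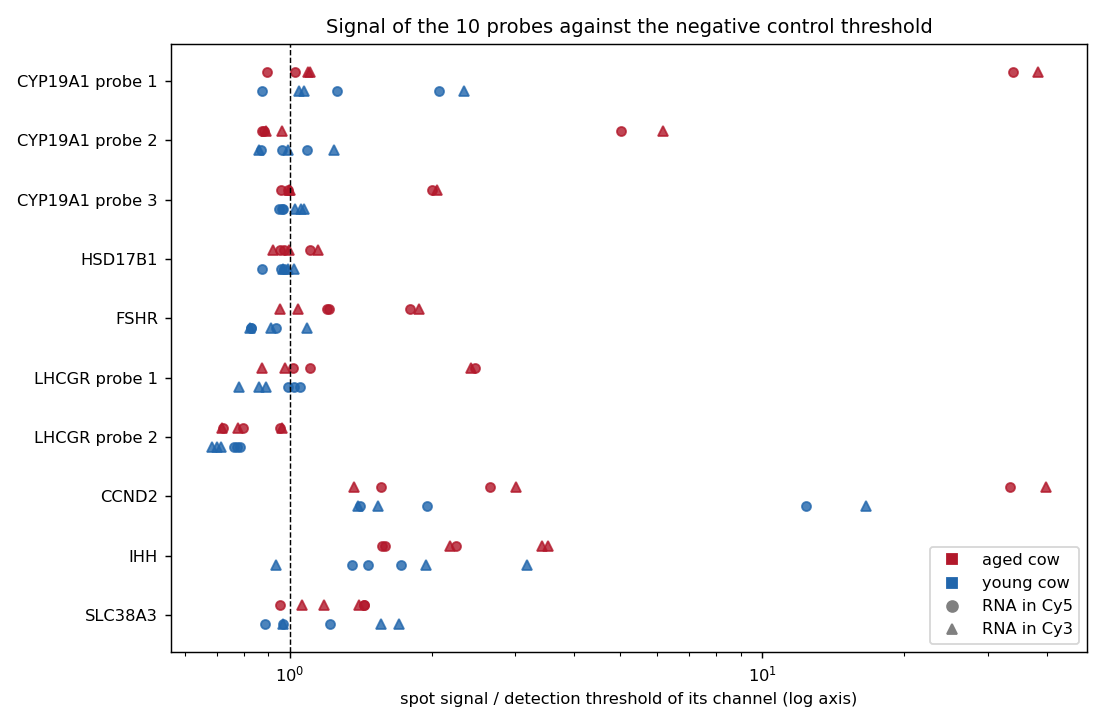
Spot signal of the 10 probes divided by the detection threshold of its channel (log axis, dashed line at the threshold), with aged cows in red above young cows in blue for each probe, circles for RNA labelled with Cy5 and triangles for Cy3. CYP19A1 probe 1 in aged cow 13 reached 34.0 and 38.4 times the threshold, and CCND2 33.5 and 39.9 times in the same cow and 12.4 and 16.6 times in young cow 7.

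Aromatase RNA was abundant in a single follicle, that of aged cow 13. With the brightest of its 3 probes, CYP19A1 had levels of 13.03, 8.48 and 8.43 in aged cows 13, 110 and 126, against 8.45, 9.68 and 8.36 in young cows 11, 7 and 184. Young cow 7 stood next, 3.34 log2 units lower, and the other 4 cows could not be told apart, since their dye-swapped arrays overlapped. The spot of aged cow 13 read 8075 units in Cy5 and 11018 units in Cy3, and that of young cow 7 read 789.9 units in Cy5 and 1023 units in Cy3, against detection thresholds of 237.2, 286.6, 382.5 and 437.9 units for those channels.

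The aged over young ratio of CYP19A1 therefore differed from pair to pair. It was 4.57 on the log2 scale (23.8-fold) for cows 13 and 11, -1.20 for cows 110 and 7 (2.30-fold lower in the aged cow) and 0.07 for cows 126 and 184. The dimmer cow was near background in both of the first pairs, so the size of these folds is uncertain. Young cow 11 read 1.26 and 1.07 times the threshold, and aged cow 110 read 0.89 and 1.10 times. The mean was 1.15 ± 3.03 (SD, n = 3), with a 95% interval of -3.61 to 5.91 from limma on all probes, and the probe did not enter the test because neither age group was above background on every array. The other 2 probes ranked aged cow 13 highest as well but spanned less: probe 2 had 10.36, 8.37 and 8.26 in the aged cows, against 8.26, 8.56 and 8.30 in young cows 11, 7 and 184, and probe 3 had 9.05, 8.37 and 8.36, against 8.33, 8.42 and 8.43. For probe 2, aged cow 13 measured 4.28-fold higher than young cow 11, which was below the threshold on both arrays. The authors' deposited log2 ratios for the brightest probe were 5.44, -1.93 and 0.15 in the same pairs. A left-out pair decided the sign of the mean, which was -0.57 without cows 13 and 11 and 2.32 without cows 110 and 7.

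HSD17B1, which completes oestradiol synthesis after aromatase, was at the edge of detection everywhere. Its levels were 8.44, 8.37 and 8.32 in aged cows 13, 110 and 126, against 8.33, 8.40 and 8.37 in young cows 11, 7 and 184. Aged cow 13 was the only animal above the threshold on both of its arrays, and it measured 1.08-fold higher than young cow 11. The mean ratio was 0.0085 ± 0.086 (SD, n = 3; 95% interval -0.14 to 0.16), measured on signal near the detection threshold.

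Of 9 genes of oestradiol synthesis and androgen conversion, 7 were on the array, CYP19A1 and HSD17B1 among them, and 4 were tested. None passed the limma threshold in either direction, and the median of the 4 was -0.07, beside 0.06 over the 8932 genes tested. HSD17B7, another enzyme that can reduce oestrone and that also serves cholesterol synthesis, exceeded the threshold in all 12 channels, with levels of 11.36, 10.77 and 10.01 in aged cows 13, 110 and 126, against 12.56, 11.69 and 10.61 in young cows 11, 7 and 184. It was lower in the aged cow of every pair (-1.20, -0.92 and -0.59 for aged cows 13, 110 and 126), although the groups overlapped, and limma gave a Benjamini-Hochberg adjusted p = 0.461. Over all genes tested, 16.1% were lower in the aged cow of all 3 pairs. HSD17B8, a related dehydrogenase, had ratios of -0.01, -0.50 and 0.16 (adjusted p = 0.783). CYP17A1, the theca enzyme that supplies androgens, stayed between 8.32 and 8.42 in all 6 cows.

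**Figure D2:**
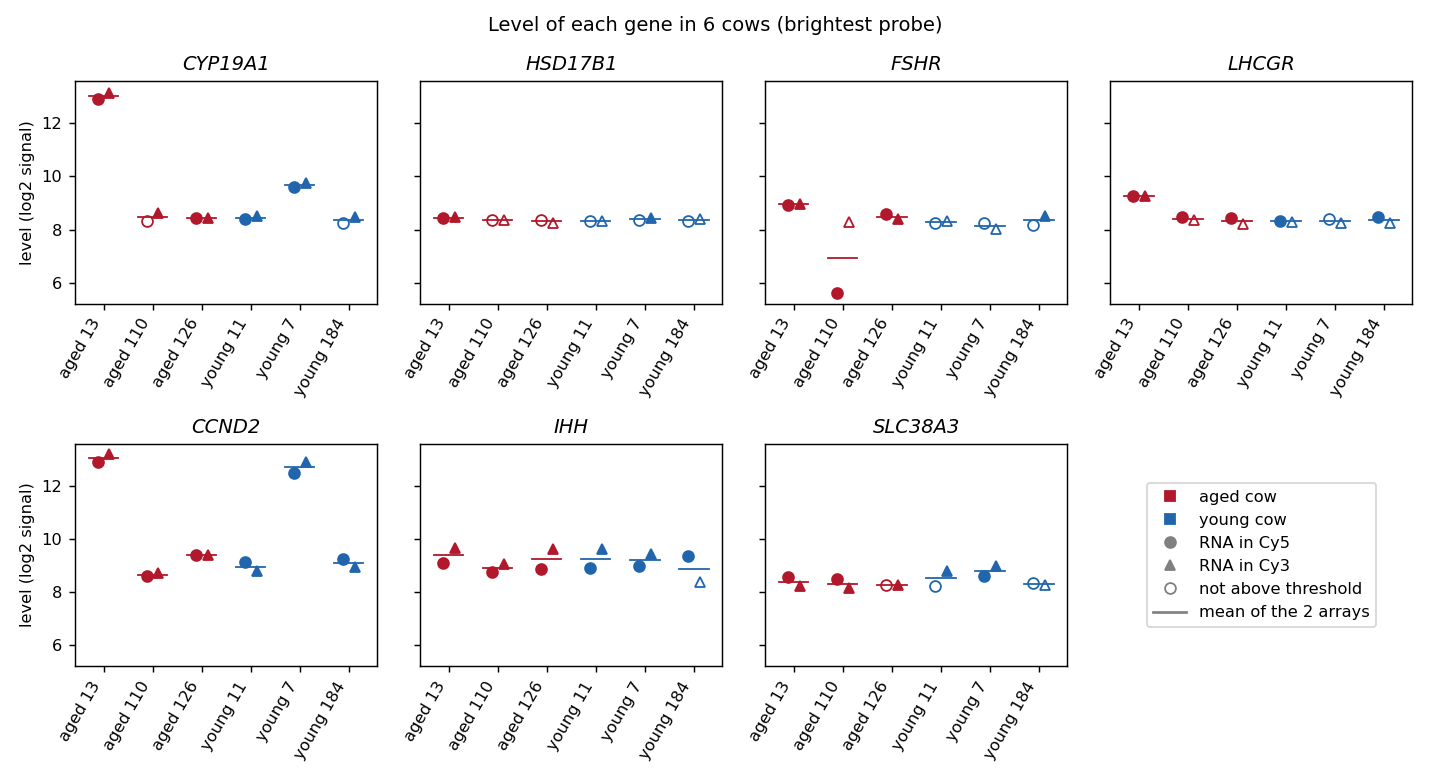
Level of each of the 7 genes (log2 signal of the brightest probe) in the 3 aged cows (red) and the 3 young cows (blue), with circles for Cy5, triangles for Cy3, open symbols for spots not above the threshold and a bar at the mean of the 2 arrays. CYP19A1 is high in aged cow 13 (13.03) and CCND2 in aged cow 13 (13.06) and young cow 7 (12.71); the low FSHR point of aged cow 110 is a spot with a local background of 6306 units.

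FSHR, the receptor through which follicle stimulating hormone keeps granulosa cells growing, was low throughout, with aged cow 13 the brightest. Levels were 8.94, 6.94 and 8.48 in aged cows 13, 110 and 126, against 8.28, 8.14 and 8.35 in young cows 11, 7 and 184. The low value of aged cow 110 came from a single Cy5 spot whose local background averaged 6306 units around a signal of 282.8 units, while the median of that background was 46 units. The array concerned gave a ratio of -2.44 and its dye-swapped partner 0.05. Without that spot, aged cow 110 had a level of 8.29 and the 6 cows spanned 0.81 log2 units.

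In pairs, the FSHR ratios were 0.66, -1.19 and 0.14, with a mean of -0.13 ± 0.96 (SD, n = 3). Leaving out that spot turned the direction, to a mean of 0.28 ± 0.33, and so did the authors' deposited ratios, with 1.26, 0.40 and 0.34 for aged cows 13, 110 and 126 over their partners. Aged cow 13 measured 1.58-fold higher than young cow 11, which was below the threshold on both arrays. FSHR was not tested, because no age group was above background on every array.

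LHCGR, the receptor that receives the LH surge, stood clear of background in aged cow 13 alone. Its brighter probe had levels of 9.27, 8.42 and 8.31 in aged cows 13, 110 and 126, against 8.30, 8.33 and 8.36 in young cows 11, 7 and 184. The other 5 cows lay between 8.30 and 8.42, and no neighbours among them were separated beyond their dye-swapped arrays. The ratios were 0.96, 0.09 and -0.04, with a mean of 0.34 ± 0.55 (SD, n = 3), and the mean was 0.02 without cows 13 and 11. The second probe stayed between 8.11 and 8.27. FSHR and LHCGR are neighbours in the RefSeq gene table, with 0 genes listed between them.

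In gonadotropin signalling, 27 of 28 listed genes, FSHR and LHCGR among them, were on the array and 14 were tested. None passed the limma threshold in either direction; 2 were higher and 3 lower in the aged cow of every pair, beside 22.6% and 16.1% of all genes tested, and the median ratio was 0.04. ADCY6, an adenylyl cyclase that makes cyclic AMP, had levels of 13.34, 13.44 and 12.79 in aged cows 13, 110 and 126, against 13.90, 14.76 and 14.85 in young cows 11, 7 and 184. All 3 aged cows were below all 3 young cows, as for 7.36% of all probes tested, and the limma adjusted p was 0.461. PDE8A, a phosphodiesterase that breaks down cyclic AMP, had 9.78, 9.64 and 9.08 in the aged cows, against 8.41, 8.66 and 8.69 in the young cows. Here all aged cows were above all young cows, as for 11.1% of probes, again with an adjusted p of 0.461 by limma. PDE4B, another such phosphodiesterase, was lower in the aged cow of every pair, with ratios of -0.39, -1.36 and -1.92. Its limma adjusted p was 0.466, and it was named after its values were seen. MVK, known in the rat as a protein that binds LH receptor mRNA, had ratios of -0.24, -0.64 and -0.17 (limma adjusted p = 0.504; named after its values were seen).

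CCND2 encodes cyclin D2, the D-type cyclin through which FSH and oestradiol drive division of granulosa cells in the mouse. It had the widest contrast of the members that were tested, with levels of 13.06, 8.66 and 9.41 in aged cows 13, 110 and 126, against 8.96, 12.71 and 9.08 in young cows 11, 7 and 184. Aged cow 13 and young cow 7 were high, with dye-swapped arrays that overlapped, and stood at least 3.30 log2 units above the remaining 4 cows. The spots read 7957 and 11420 units in aged cow 13 and 4728 and 7259 units in young cow 7, against 360.4 to 694.2 units in the other cows.

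The 2 high cows belonged to different ages and different pairs, and the CCND2 ratios had opposite signs of nearly equal size. The ratio was 4.10 (17.1-fold) for cows 13 and 11 and -4.05 (16.5-fold lower in the aged cow) for cows 110 and 7, with 0.32 for cows 126 and 184. The mean of 0.12 ± 4.08 (SD, n = 3; SE from limma 1.92) had a Benjamini-Hochberg adjusted p of 0.979 by limma. Its 95% interval ran from -6.27 to 6.52, so an age difference of several log2 units in either direction lay within it.

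**Figure D3:**
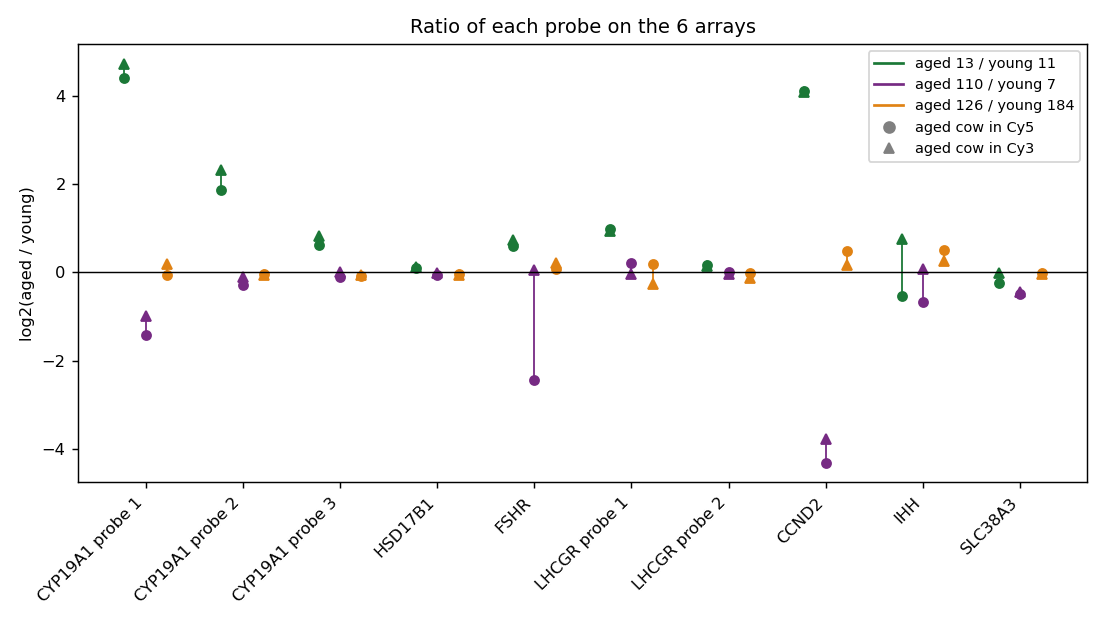
Ratio of each of the 10 probes on the 6 arrays, log2(aged / young), coloured by cow pair, with circles where the aged cow was in Cy5 and triangles where it was in Cy3, joined within a pair. CCND2 lies near 4 in the pair 13 and 11 and near -4 in the pair 110 and 7 on both arrays, and the joined FSHR points of the pair 110 and 7 (-2.44 and 0.05) are far apart.

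A pattern of at least 4-fold higher in the pair 13 and 11 together with at least 4-fold lower in the pair 110 and 7 was found for 17 of 20595 tested probes (0.0825%), 13 of them with a gene symbol. Beside CCND2 these included INHBA, the beta A subunit of inhibins and activins, with ratios of 4.61, -3.94 and 0.35, and CYP11A1, the enzyme that opens steroid synthesis from cholesterol, with 3.10, -2.53 and 0.35. LRP8, a lipoprotein receptor (6.32, -4.71 and -0.19), and TRIB2, a pseudokinase (5.59, -5.23 and -0.03), had the 2 largest contrasts and were named after their values were seen. The pattern was chosen from the ratios of CCND2, so the count is a description.

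**Figure D4:**
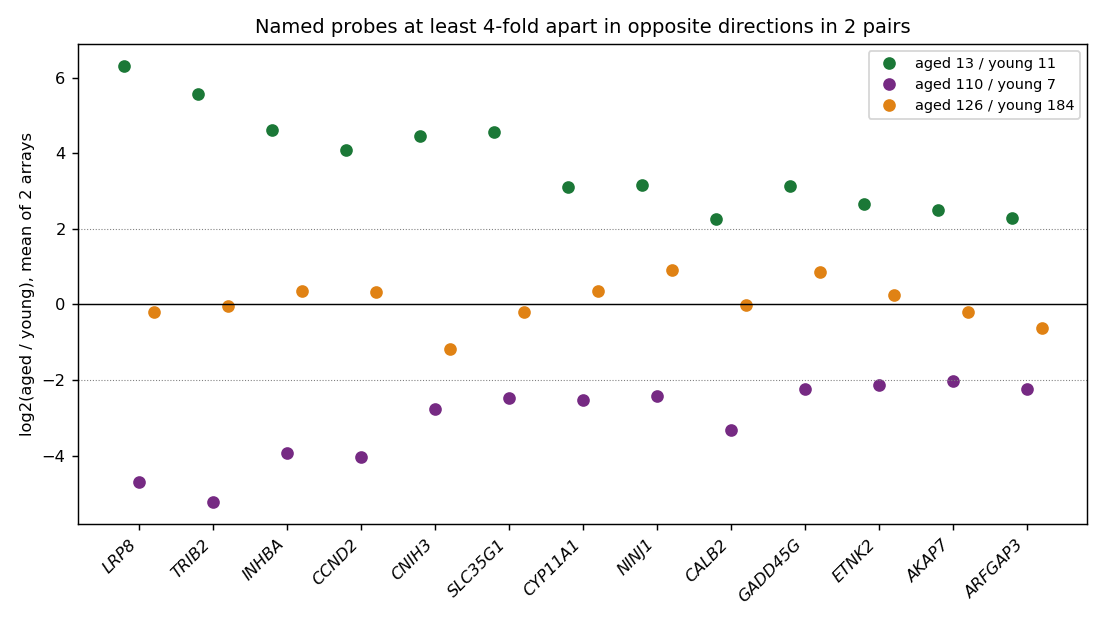
Log2(aged / young), mean of 2 arrays, for the 13 named genes at least 4-fold higher in the pair 13 and 11 (green) and at least 4-fold lower in the pair 110 and 7 (purple), with the pair 126 and 184 in orange and dotted lines at 4-fold. CCND2 has 4.10, -4.05 and 0.32, and INHBA has 4.61, -3.94 and 0.35.

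Likeness over the 6 cows was measured as the root mean square difference of levels after centring each gene on its own mean. Only tested genes were compared, so genes not above background on every array in either age group were left out. The 5 tested genes nearest to CCND2 were INHBA (0.43 log2 units), CYP11A1 (0.65), NINJ1 (0.67), CALB2 (0.68) and SLC35G1 (0.69). INHBA had levels of 15.10, 11.43 and 11.96 in aged cows 13, 110 and 126, against 10.49, 15.37 and 11.61 in young cows 11, 7 and 184. CYP11A1 had 11.09, 8.89 and 8.47 in the aged cows, against 7.99, 11.41 and 8.12 in the young cows. In both genes the same cows, 13 and 7, were the brightest, which follows from picking the genes nearest to CCND2 and is a description.

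For CYP19A1, itself untested, the nearest tested genes were BEX2 (0.52), PRC1 (0.59), GSTM3 (0.64), SLC35G1 (0.65) and CENPN (0.68). Among these, PRC1 serves cytokinesis and CENPN is a centromere protein. BEX2 had 13.76, 10.43 and 8.95 in aged cows 13, 110 and 126, against 8.92, 10.58 and 9.71 in young cows 11, 7 and 184. For FSHR the nearest were PAN2, BLVRB, MRPL34, ZFYVE27 and ENTR1, at 0.28 to 0.32 log2 units, but this order rests on the spot with high background in aged cow 110. The remaining members spanned under 1 log2 unit and were given no nearest genes.

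Other genes of the steroid pathway had another order of cows. STAR, which brings cholesterol into mitochondria, had levels of 12.43, 13.63 and 12.01 in aged cows 13, 110 and 126, against 8.69, 11.63 and 10.33 in young cows 11, 7 and 184. HSD3B1, which makes progesterone, had 10.53, 11.85 and 10.92 in the aged cows, against 8.26, 9.20 and 10.78 in the young cows. Aged cow 110 was thus highest for STAR and HSD3B1, while its CYP19A1 and CCND2 were at 8.48 and 8.66. STAR had ratios of 3.74, 2.0 and 1.68, with a limma adjusted p of 0.461. All its aged cows were above all young cows, as for 11.1% of all probes tested.

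TNFAIP6, a matrix gene induced by the LH surge, separated the cows in another way and was named after its values were seen. Its levels were 14.99, 15.08 and 15.03 in aged cows 13, 110 and 126, against 8.90, 9.19 and 15.10 in young cows 11, 7 and 184. Young cow 7, with CCND2 at 12.71 and TNFAIP6 at 9.19, and aged cow 13, with CCND2 at 13.06 and TNFAIP6 at 14.99, differed in that gene. Young cow 11 combined low TNFAIP6 with low INHA (10.48), high EPCAM (15.0) and low CYP19A1 and CCND2 (8.45 and 8.96); the part of these markers in the ratios of the pair 13 and 11 was not tested.

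**Figure D5:**
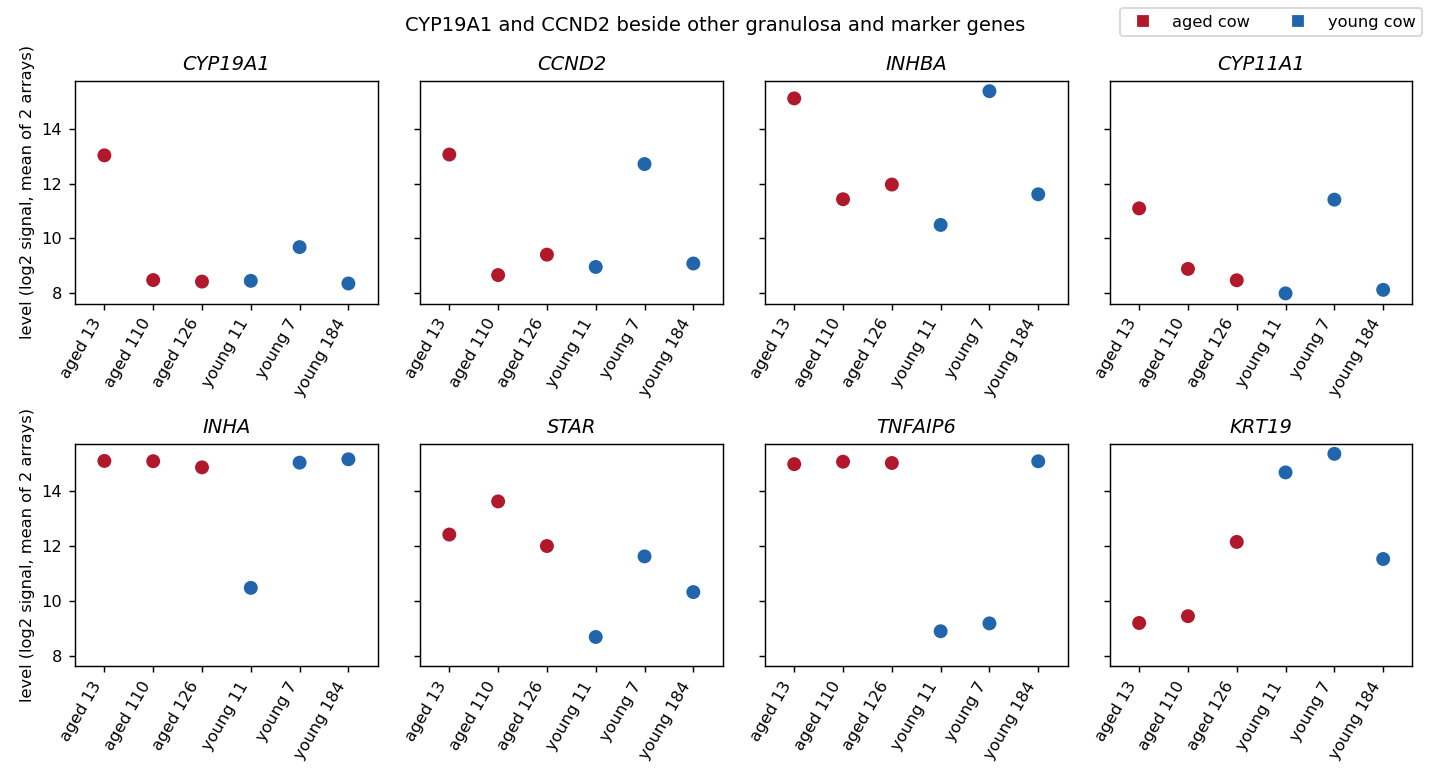
Levels (log2 signal, mean of 2 arrays) of CYP19A1 and CCND2 beside INHBA, CYP11A1, INHA, STAR, TNFAIP6 and the epithelial marker KRT19 in the 3 aged cows (red) and the 3 young cows (blue). CCND2 is highest in aged cow 13 and young cow 7, as are INHBA and CYP11A1, which are its nearest tested genes over these cows. INHA is low (10.48) in young cow 11.

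Cyclin D2 works by activating the kinases CDK4 and CDK6. Of 18 listed D cyclins and partners, 17 were on the array and 15 were tested, CCND2 among them. None passed the limma threshold in either direction, 4 were higher in the aged cow of every pair (22.6% of all genes were) and 0 were lower in every pair. CDK4 had levels of 10.74, 9.84 and 10.17 in aged cows 13, 110 and 126, against 9.93, 9.18 and 9.89 in young cows 11, 7 and 184, with ratios of 0.81, 0.66 and 0.28 (limma adjusted p = 0.461). The groups overlapped, since young cow 11 and young cow 184 were above aged cow 110. CDKN2D, an inhibitor of CDK4 and CDK6, had ratios of 1.93, 0.16 and 0.93 (adjusted p = 0.527). The other D cyclins did not follow CCND2: CCND1 was below the threshold in all 12 channels, and CCND3 had ratios of -0.79, 0.08 and 1.12 (both named after their values were seen).

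IHH, Indian hedgehog, is secreted by granulosa cells and signals to the theca layer, as known from the mouse. Its levels were 9.39, 8.93 and 9.24 in aged cows 13, 110 and 126, against 9.27, 9.22 and 8.87 in young cows 11, 7 and 184. The ages overlapped fully, and no neighbours in the order of levels were separated beyond their dye-swapped arrays. The ratios were 0.12, -0.30 and 0.37, with a mean of 0.06 ± 0.34 (SD, n = 3; SE from limma 0.168) and a Benjamini-Hochberg adjusted p of 0.878 by limma.

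The IHH probe also differed between dyes. Its Cy3 level exceeded its Cy5 level in 5 of 6 cows, and the arrays of a cow differed by up to 1.0 log2 units, against a largest difference of 0.52 between cows. In the pair 13 and 11 the array with the aged cow in Cy5 gave -0.53 and the other 0.76. With the aged cows in Cy5 only, the mean was -0.24.

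Of 18 hedgehog pathway genes, 16 were on the array and 9 were tested, IHH among them. None passed the limma threshold in either direction, 2 were higher and 3 lower in the aged cow of every pair (22.6% and 16.1% of all genes), and the median ratio was 0.01. NR2F2, a nuclear receptor of theca and stromal cells, had ratios of -1.42, -0.23 and -0.53 (adjusted p = 0.524), and SMO, which relays the signal into the cell, had 0.22, 0.15 and 0.04 (adjusted p = 0.56). PTCH1, the receptor and a target gene of the pathway, varied most and was named after its values were seen: 10.81, 12.85 and 10.41 in aged cows 13, 110 and 126, against 9.79, 9.39 and 11.09 in young cows 11, 7 and 184. Its ratios were 1.02, 3.47 and -0.68, with an adjusted p of 0.673 by limma.

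SLC38A3 encodes a transporter of glutamine and other neutral amino acids, which in the mouse is induced in cumulus cells by the oocyte. Its levels were 8.40, 8.32 and 8.28 in aged cows 13, 110 and 126, against 8.53, 8.79 and 8.31 in young cows 11, 7 and 184. It was the sole member lower in the aged cow of all 3 pairs, as were 19.9% of all tested probes, a base that leaves it out. Its ratios were -0.13, -0.46 and -0.03, with a mean of -0.21 ± 0.23 (SD, n = 3, 95% interval -0.57 to 0.16). Young cow 7 was the brightest, but its arrays overlapped with those of the next cow, and the spread between the arrays of a cow (up to 0.55) was as large as the range over cows (0.51). The probe was near background and not tested, and with spot medians the mean was 0.04. The authors' deposited ratios were -0.05, -0.54 and 0.55 in the same pairs, so the direction shared by all 3 pairs did not hold in them.

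Of 15 genes of glutamine transport and metabolism, 13 were on the array, SLC38A3 among them, and 6 were tested, with none past the limma threshold in either direction. SLC38A2, a related transporter above the threshold in all 12 channels, had levels of 13.60, 14.39 and 13.25 in aged cows 13, 110 and 126, against 13.17, 12.21 and 12.71 in young cows 11, 7 and 184. All aged cows were above all young cows, as for 11.1% of all probes tested, with ratios of 0.43, 2.18 and 0.53 (limma adjusted p = 0.541). GLUL, which makes glutamine, had ratios of -2.15, -1.66 and 0.25 (adjusted p = 0.576), and its levels were 8.88, 9.40 and 10.03 in the aged cows, against 11.02, 11.06 and 9.78 in the young cows.

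As a comparison of ages, 2 of the 7 genes (CCND2 and IHH) could be tested and 0 passed the adjusted threshold of 0.05 by limma, beside 0% of all 20595 probes. The smallest adjusted p over the array was 0.461, while at an unadjusted p under 0.05 aged cows had higher signal for 6.39% of probes and lower signal for 4.09%. With no filter on dim probes, 0 of the 7 genes had an unadjusted limma p under 0.05, and the adjusted p of the 5 untested genes ran from 0.740 to 0.946. Exact sign-flip tests over the 3 pairs, two-sided, cannot go below p = 0.25, a value that SLC38A3 reached. Neither of the 2 tested genes was higher, or lower, in the aged cow of all 3 pairs, beside 20.5% of all tested probes higher and 19.9% lower in all 3. In none of the 7 genes were all aged cows above or all below the young cows, beside 11.1% and 7.36% of tested probes, a base without the 5 untested genes.

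Aged cow 13 had the highest level of 6 of the 7 genes, all but SLC38A3, beside 15.5% of all 15216 genes on the array with no filter. It was separated from the next cow for 3 of them (CYP19A1, FSHR and LHCGR), while for the other 3 (CCND2, IHH and HSD17B1) its arrays overlapped with those of the next cow. Of the 7 genes, 6 were higher in aged cow 13 than in young cow 11, beside 50.7% of all genes. In the pair 110 and 7, 1 of 7 was higher in the aged cow (47.9% of all genes), or 2 of 7 without the FSHR spot of high local background, and in the pair 126 and 184, 4 of 7 were (51% of all genes). CYP19A1 and CCND2 were the only members at least 4-fold apart in any pair. Of all tested probes, 1.9% were at least 4-fold higher and 1.93% lower in aged cow 13 than in young cow 11, 1.71% higher and 1.18% lower in aged cow 110 than in young cow 7, and 0.762% higher and 0.282% lower in aged cow 126 than in young cow 184. For IHH and SLC38A3 the range over cows was smaller than the largest difference between the arrays of a cow, and for HSD17B1 it was 0.12 against 0.11, so their order of cows was not resolved. For FSHR the range of 2.001 was likewise smaller than the difference of 2.70 between the arrays of aged cow 110, but without the spot of high local background the range was 0.81 and the arrays of a cow differed by at most 0.34.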

How the data were processed

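Per the file headers, the deposited scanner files hold linear, unnormalised intensity for each spot and for its local background, as a mean and a median per channel (45220 spots per file, 14 summary lines left out). Spots were matched between files by position, since 1 file listed 85 spots in another row order. The authors also deposited log2 ratios, made with limma per the submitters' processing notes; set against the scanner values, all 6 columns ran as aged over young and were centred near 0, and the background correction behind them is not given in the sources used here. Per the labels, RNA went through 2 rounds of linear amplification.

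Spot means were corrected by normexp (offset 50) and loess-normalised within arrays in limma 3.58.1 (R 4.3.3), with control and ignored spots at weight 0. All ratios were expressed as log2 of aged over young, dye-swapped arrays were averaged, and the 3 resulting values per probe were fitted with lmFit and eBayes (two-sided, Benjamini-Hochberg over 20595 probes, threshold 0.05). Those probes had, for aged or for young cows, signal over the mean + 2 SD of 153 negative controls on every array. Levels are channel signals after loess and Aquantile. A gene was represented by its brightest probe, and probes were named by the platform annotation (21790 with 1 symbol, 22004 with none here). The pairing comes from the arrays, on which both cows of a pair were hybridised together. The number of arrays limits the precision, the files carry no saturation flag, and the brightest probe read 46784 units. The fit was tested on simulated data.

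The members, the 14 gene lists and the rules for named genes were chosen with earlier results of these data known. The text names all member probes, the 5 nearest tested genes of members that spanned at least 1 log2 unit, and up to 2 tested genes with the smallest unadjusted p per list. It also names INHA, FOXL2, STAR, HSD3B1, CYP11A1, CYP17A1, EPCAM, KRT19 and PTPRC. Other genes are said to be named after their values were seen. Alternatives covered the filter, background correction, normalisation, spot medians, the authors' ratios, each dye orientation, the pairing, the slide and each cow pair left out.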

Additional observations from a re-analysis of the deposited data

How the results depend on the processing

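The count of probes past the adjusted threshold was 0 in the main setting and under all 17 alternatives, with 538 to 3189 probes at an unadjusted p under 0.05 (2160 in the main setting). With no replicate block, the cows of a pair treated as unpaired, the count was 0 and the smallest adjusted p 0.161. For CCND2 the mean log2 ratio of 0.12 was -0.033 with spot medians and -0.087 with the authors' ratios, and ran from -1.86 (without the cow pair 13 and 11) to 2.21 (without 110 and 7) as pairs were left out. For IHH the mean of 0.06 was -0.24 with aged cows in Cy5 only, and ran from -0.091 (without the cow pair 126 and 184) to 0.25 (without 110 and 7). The cause of these turns was not tested. The mean of FSHR ran from -0.59 to 0.92 over its alternatives, with 0.92 from spot medians. The slide as a random block on averaged values could not be fitted and was not run; on single arrays, an alternative chosen after seeing the data, the adjusted p was 0.979 for CCND2 and 0.869 for IHH. The labels give no slide numbers, and those used came from scan names. By these names, all arrays of the pairs 13 with 11 and 110 with 7 shared a slide, and both arrays of the pair 126 with 184 were on other slides. Differences between that pair and the rest therefore cannot be told apart from slide. Leaving out spots whose local background exceeded their signal was also chosen after seeing the data; of 523 such probe spots, 1 was of a member. Dixon's test for outlying samples was not applied to groups of 3 cows.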

Other observations

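Of the follicle phase genes, INHBB and AMH also stood highest in aged cow 13 and young cow 7, and were named after their values were seen. INHBB was not tested, so it was not a candidate for the nearest genes of CYP19A1 and CCND2. Others of the follicle phase list had another order of cows. FST was highest in aged cows 13 and 110 (11.44 and 10.46), MRO in aged cow 110 (14.24) and VNN1 in young cow 11 (15.14), with FST and MRO also named after their values were seen. INHBB, the beta B subunit of inhibins and activins, had levels of 13.18, 8.15 and 8.15 in aged cows 13, 110 and 126, against 8.43, 10.74 and 8.14 in young cows 11, 7 and 184, and AMH, a hormone of growing follicles, had 9.0, 8.44 and 8.37 in the aged cows, against 8.17, 8.81 and 8.46 in the young cows. By contrast GATA4 and SERPINE2, granulosa genes that were bright in 5 cows, were lowest in young cow 11: GATA4 had 13.34, 12.85 and 12.07 in the aged cows, against 8.81, 11.31 and 12.86 in the young cows, and SERPINE2 had 15.18, 15.17 and 14.97, against 10.80, 14.97 and 15.24. Over the follicle phase list, which includes 4 of the members, 26 of 27 genes were on the array and 13 were tested, none passed the limma threshold in either direction, and the median ratios were 3.20, 0.0094 and -0.09 for aged cows 13, 110 and 126 over their partners.

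Genes of luteinisation and progesterone synthesis had median ratios of 1.97, 2.61 and 0.13 in the same pairs, over 10 tested genes of 16 on the array. Of these 10, 6 were higher in the aged cow of every pair, beside 22.6% of all genes, and none passed the limma threshold in either direction. The 9 tested epithelial markers had median ratios of -3.06, -2.86 and 0.08 in these pairs; their part in the ratios of the luteinisation and follicle phase lists was not tested. RGN, a calcium-binding protein, had levels of 11.29, 11.56 and 9.91 in the aged cows, against 8.36, 8.996 and 9.52 in young cows 11, 7 and 184. All its aged cows were above all young cows, as for 11.1% of all probes tested, and the limma adjusted p was 0.483. NR5A2, a nuclear receptor that acts on aromatase and progesterone genes, ran the other way, with 12.81, 12.30 and 11.60 in the aged cows, against 13.36, 13.62 and 13.46 in the young cows (adjusted p = 0.461).

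Markers of other cells also differed between cows, among them aged cow 13 and young cow 7, and their part in the levels of CYP19A1 and CCND2 was not tested. The leukocyte marker PTPRC had levels of 9.88, 11.32 and 12.03 in aged cows 13, 110 and 126, against 10.31, 12.54 and 12.33 in young cows 11, 7 and 184, lowest in aged cow 13 and highest in young cow 7, and the mean over the 11 leukocyte markers was highest in aged cow 126 (10.38). Theca markers averaged 8.98, 9.43 and 9.50 in the aged cows, against 9.30, 9.41 and 9.71 in the young cows. Endothelial and oocyte markers averaged 8.33 to 8.52 in every cow, near background. Erythrocyte markers averaged 8.38, 8.40 and 9.02 in the aged cows, against 9.01, 8.67 and 9.32 in the young cows, with HBB, a globin chain, at ratios of -0.81, -1.40 and -1.33 (limma adjusted p = 0.461). Of 12 genes of oestradiol action and breakdown, 10 were on the array and 5 were tested, none past the limma threshold in either direction, and both oestrogen receptor genes, ESR1 and ESR2, were above the threshold in 1 of 6 aged and 0 of 6 young channels (both named after their values were seen).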
